A study of Mus musculus with 6 samples.

Results

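The 9 heat-shock genes *Hsph1*, *Hspa4*, *Hspa4l*, *Hspa8*, *Hspa14*, *Hspa1a*, *Hspa1b*, *Hspb1* and *Bag3* were followed in murine AML cells, out of 54838 genes counted. They were matched by gene symbol, and all 9 were found. The group was selected on the measured difference between AG636 and vehicle. There *Hsph1* came first of all genes when ranked by p, though not by size of decrease, and none of the genes listed as inducible was called down. The values of that comparison for these genes are therefore a description, and nothing is supported with them. All mice carried I1DN leukemia, in which fetal liver-derived progenitors on a C57BL/6 background express IDH1R132H, DNMT3AR882H and NrasG12D from introduced constructs. The leukemic cells were grown in sublethally irradiated Ptprca recipients, which keep host blood cells of their own, and both groups share these alleles and this preparation. The Vehicle group (3 mice) received the carrier, and the AG636 group (3 mice) received AG636, an inhibitor of the pyrimidine synthesis enzyme DHODH, at 100 mg/kg by mouth b.i.d. The length of treatment is stated as 1 day in one place of the study and as 4 days in another, and ages are not given in the sources used here. AML cells were sorted from bone marrow and spleen as immature cells with cKit and little CD11b, and polyadenylated RNA was read from the end of each transcript.

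HSP70 proteins bind unfolded stretches of other proteins in a cycle driven by ATP. J-domain proteins start the cycle by triggering ATP hydrolysis, and nucleotide exchange factors end it by releasing ADP and then the client. *Hspa8* encodes HSC70, the constitutive cytosolic HSP70, and *Hspa1a* and *Hspa1b* encode the stress-inducible HSP70. *Hsph1* (HSP105), *Hspa4* (APG-2) and *Hspa4l* (APG-1) encode the HSP110 proteins, relatives of HSP70 that act as its exchange factors, and *Bag3* encodes an exchange factor of another family. *Hspa14* encodes HSP70L1, which works with ribosomes, and *Hspb1* encodes the small heat-shock protein HSP25, which holds unfolded proteins without using ATP. Under proteotoxic stress, heat shock factor 1 (HSF1) binds inverted GAA repeats, called heat shock elements, and switches on inducible genes of this group.

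The promoters were read first, because heat shock elements separate the members without any use of expression. RefSeq windows on GRCm38, from 250 bases before to 50 after the transcript start, were given for 8 of the 9 genes, all but *Hspa8*. A full element was searched as 3 alternating units, either GAA, TTC, GAA or TTC, GAA, TTC, with 2 bases of any kind (NN) between units, and each of these forms is the other one read on the opposite strand. A pair was searched as 2 such units, GAA then TTC or TTC then GAA, and either form of the pair reads the same on both strands. The full element occurred in 0.603% of all 32851 windows and the pair in 15.1%, and each full element also contains 2 overlapping pairs. Of the members, only *Hsph1* had a full element, at positions 37 to 49 after the start. It also had a further pair at -33 to -26. The 4 genes listed here as inducible, *Hspa1a*, *Hspa1b*, *Hspb1* and *Bag3*, each had at least 1 pair and no full element. *Hspa4*, *Hspa4l* and *Hspa14* had neither. The label inducible comes from the list used here, and whether *Hsph1* is inducible too was not measured. *Hsph1* has a second RefSeq start slightly downstream, whose window holds the same matches. The stretches that hold the matches are shown here, with the full element of *Hsph1* and the pairs of the 4 genes listed as inducible. *Hspa4* is shown as a relative without a match. Capitals mark the pairs, and an overlapping run of 13 capitals is the full element.

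Hsph1, bases 24 to 50 after the start, chr5:149636287-149636313, minus strand: aaaatgctgcagaTTCTGGAAAGTTCt
Hsph1, 150 bases before the start, chr5:149636337-149636486, minus strand: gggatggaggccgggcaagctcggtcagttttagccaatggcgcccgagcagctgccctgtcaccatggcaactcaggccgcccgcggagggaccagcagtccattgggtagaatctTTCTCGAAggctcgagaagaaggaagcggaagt
Hspa1a, 150 bases before the start, chr17:34972157-34972306, minus strand: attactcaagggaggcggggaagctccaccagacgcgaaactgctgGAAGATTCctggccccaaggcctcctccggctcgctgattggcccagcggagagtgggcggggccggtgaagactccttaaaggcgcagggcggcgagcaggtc
Hspa1b, 150 bases before the start, chr17:34959239-34959388, minus strand: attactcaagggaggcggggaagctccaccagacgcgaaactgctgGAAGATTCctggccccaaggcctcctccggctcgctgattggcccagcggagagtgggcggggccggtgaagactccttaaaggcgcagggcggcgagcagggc
Hspb1, 150 bases before the start, chr5:135887769-135887918, plus strand: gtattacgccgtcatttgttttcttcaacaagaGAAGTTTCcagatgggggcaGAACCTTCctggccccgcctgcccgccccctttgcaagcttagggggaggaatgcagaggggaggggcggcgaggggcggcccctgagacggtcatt
Bag3, bases 24 to 50 after the start, chr7:128523606-128523632, plus strand: agttctctggatgggaccaGAAGTTTC
Hspa4, 150 bases before the start, chr11:53300480-53300629, minus strand: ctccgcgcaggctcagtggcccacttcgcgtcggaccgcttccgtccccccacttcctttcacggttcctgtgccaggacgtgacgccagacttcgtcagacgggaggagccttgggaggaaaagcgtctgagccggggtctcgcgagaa

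The promoters of *Hspa1a* and *Hspa1b* differed at 1 of these 150 bases and at 3 of the 250 before the start. A match is a run of letters and not a measured site of HSF1, and longer or imperfect elements were not searched.

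**Figure D1:**
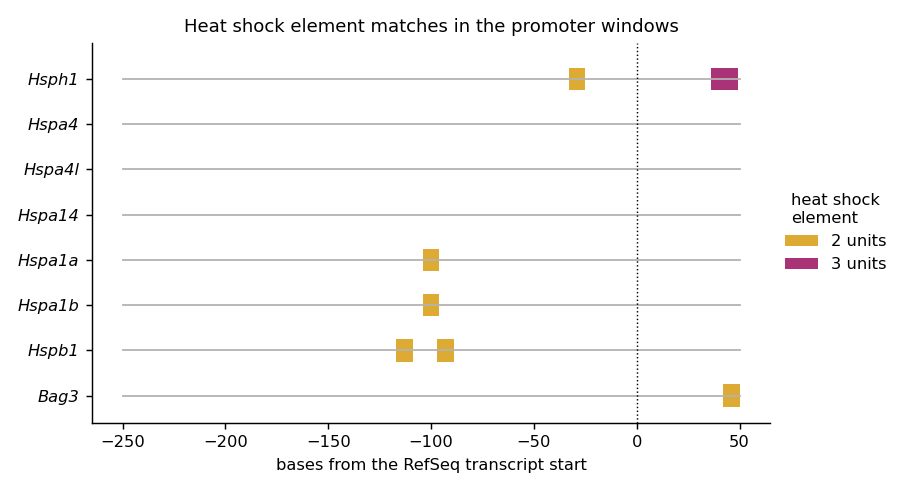
Positions of heat shock element matches relative to the RefSeq transcript start (dotted line, bases on the horizontal axis) in the promoter windows of 8 genes. The single full element lies after the start of *Hsph1*, pairs lie before or after the starts of the 4 inducible genes, and 3 windows are empty.

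Samples held between 4634963 and 7906589 counts, and levels are given as CPM, counts per 1000000 counts after scaling of the library sizes by TMM. Since reads come from transcript ends, no value was divided by length, and levels are not ranked between genes. Replicates are single mice. The list of 11 immature myeloid genes also held *Itgam*, whose product CD11b the paper uses as a mature myeloid marker. Of its 10 genes tested, 9 were higher with AG636. Only 2 passed the threshold, *Ptprc* with a log2 fold change of 0.65 and *Itgam* with 1.21. The other 8 did not pass, among them *Kit* (0.15), *Myb* (0.03) and *Cd34* (0.45). These calls therefore do not show a rise of immature markers. The summed level of the list overlapped, between 2354 and 4677 CPM for vehicle and between 1970 and 4726 for AG636. *Mpo* had a log2 fold change of -0.65 (interval from -1.53 to 0.24). *Kit* overlapped between the groups, at 38.6 ± 6.03 CPM in vehicle mice against 42.8 ± 4.80 in AG636 mice (SD, n = 3 each). *Itgam*, which encodes the CD11b used in the sort, rose from 19.1 to 44.2 CPM, and *Flt3* had 54 counts in all and did not pass the filter on low counts. Of the 7 T cell markers, *Lck* alone passed the filter, at 8.67 and 8.24 CPM, and the others had between 2 and 42 counts over all 6 samples, with 6 for *Cd3e*. Of the 5 B cell markers, *Cd79b* alone passed, at 10.5 and 15.4 CPM, and the others had between 2 and 15 counts. Markers of mature myeloid cells moved with treatment. Over all genes tested, 10.3% were called up and 11.0% down. Of the 7 late neutrophil genes, 5 rose with AG636, and their summed level was between 1018 and 2343 CPM with vehicle and between 2844 and 5838 with AG636. Of the 5 macrophage genes tested out of 6, 2 rose, and the summed level was between 41.2 and 60.8 CPM with vehicle and between 113 and 148.6 with AG636. Of the 3 megakaryocyte genes tested out of 4, 2 rose, with overlapping summed levels. Of the 8 erythroid genes, 2 fell, with summed levels that overlapped. The part of these cells in the results that follow was not tested, and in sorted bulk RNA fewer cells of a type and less RNA per cell cannot be told apart.

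The HSP110 genes were all lower with AG636, and *Hsph1* was by far the lowest relative to vehicle. *Hsph1* (chr5:149614287-149636376, mm10, minus strand) had 185, 176 and 164 CPM in the 3 vehicle mice and 45.5, 44.5 and 48.7 in the 3 AG636 mice. The groups lay far apart, and the mice of each group were close to each other, with the highest mouse at 1.13 times the lowest with vehicle and 1.09 times with AG636. The mean with AG636 was 26.4% of the mean with vehicle, a log2 fold change of -1.92 with a standard error of 0.12 and a 95% interval from -2.19 to -1.65. The raw counts behind these levels were 1039, 1345 and 787 with vehicle and 214, 216 and 258 with AG636. By size of decrease alone, *Hsph1* ranked 38 of 11092 genes tested.

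*Hspa4* (chr11:53259814-53300457, minus strand) had 403, 356 and 391 CPM with vehicle and 244, 237 and 236 with AG636. Here too no AG636 mouse reached the lowest vehicle mouse, and the AG636 mice were almost equal. The log2 fold change was -0.68 (standard error 0.11, 95% interval from -0.92 to -0.44), or 62.4% of the vehicle mean. *Hspa4l* (chr3:40744495-40796103, plus strand) had 90.8, 68.9 and 59.1 CPM with vehicle and 52.0, 59.2 and 45.7 with AG636, so that vehicle replicate 3 and AG636 replicate 2 met, and a different scaling of the libraries removed this overlap. Its log2 fold change was -0.48 (standard error 0.18, 95% interval from -0.88 to -0.08). This gene did not pass the threshold with all mice and the filter on low counts. It passed without vehicle replicate 3, where the log2 fold change was -0.63, and with no filter, where it was -0.51.

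Together the HSP110 genes summed to 631 ± 41.7 CPM in vehicle mice against 338 ± 6.07 in AG636 mice (SD, n = 3). The make-up of the family differed between the mice of the 2 groups, without overlap. *Hsph1* held 27.3, 29.3 and 26.8% of the HSP110 counts with vehicle and 13.3, 13.1 and 14.7% with AG636. The share of *Hspa4* was between 59.3 and 63.6% with vehicle and between 69.5 and 71.5% with AG636. These are shares of end-of-transcript counts, and they show unequal change rather than amounts of protein.

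**Figure D2:**
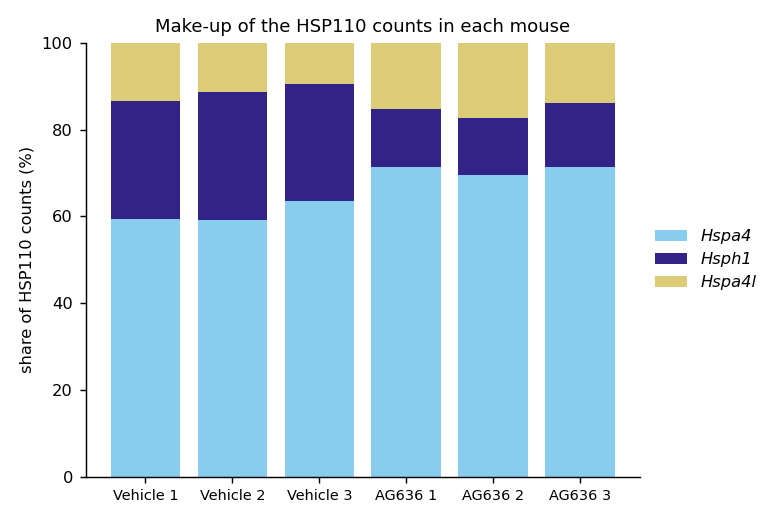
Share of the counts of *Hsph1*, *Hspa4* and *Hspa4l* (vertical axis, percent of their sum) in each of the 3 vehicle and 3 AG636 mice. The *Hsph1* part is between 26.8 and 29.3% in vehicle mice and between 13.1 and 14.7% in AG636 mice.

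Of the constitutive HSP70 genes, *Hspa8* was at 46.1% of its vehicle level and *Hspa14* overlapped between the groups. *Hspa8* (chr9:40800984-40810087, plus strand) had 404, 394 and 383 CPM with vehicle and 183, 154 and 208 with AG636. The vehicle mice were nearly equal, the AG636 mice differed more from each other, and the groups did not overlap. The log2 fold change was -1.12 (standard error 0.13, 95% interval from -1.40 to -0.83). The end of this transcript is not unique in the genome. Of the 426 windows of 75 bases, the read length, in its last 500 bases, 80.8% also occur in transcripts of 8 pseudogenes. These pseudogenes had 41 counts in total against 9831 for *Hspa8*. Reads that fit several places may have been left out or assigned to either, so the level of *Hspa8* is uncertain. The end windows of *Hsph1*, *Hspa4*, *Hspa4l*, *Hspa14*, *Hspa1a*, *Hspa1b* and *Bag3* occur in no other annotated gene, and 10.3% of those of *Hspb1* occur in a pseudogene with 1 count.

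*Hspa14* (chr2:3488850-3512814, minus strand) had 121, 86.3 and 116 CPM with vehicle and 93.7, 91.3 and 84.0 with AG636. Vehicle replicate 2 lay among the AG636 mice. The log2 fold change was -0.26 (standard error 0.15, 95% interval from -0.59 to 0.07). An exon of *Hspa14* overlaps the predicted gene *Gm45902* on the same strand, which had 137 counts against 3218.

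The 4 inducible genes showed no common direction, and each overlapped between the groups. *Hspa1a* (chr17:34969190-34972156, minus strand) had 29.4, 42.1 and 83.8 CPM with vehicle and 86.2, 43.1 and 82.9 with AG636. Vehicle replicate 3 was as high as the high AG636 mice, and AG636 replicate 2 was as low as vehicle replicate 2. *Hspa1b* (chr17:34956436-34959238, minus strand) had 104, 134 and 317 CPM with vehicle and 337, 189 and 314 with AG636, and both genes put the 6 mice in the same order. Their log2 fold changes were 0.46 (standard error 0.36, 95% interval from -0.34 to 1.26) and 0.60 (standard error 0.37, 95% interval from -0.21 to 1.42).

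These intervals include no change and also a rise of more than 2-fold. The mice of 1 group differed widely, with a highest vehicle mouse at 2.85 times the lowest for *Hspa1a* and 3.03 times for *Hspa1b*. Without vehicle replicate 3 the log2 fold change of *Hspa1b* was 1.21 and passed the threshold, and without vehicle replicate 1 it was 0.31. With no filter on low counts it was 0.58 and passed, with a standard error of 0.14 in place of 0.37. That call rests on the smaller standard error, since the estimate hardly moved and the mice are the same. The transcripts of these neighbouring genes share 52.7% (*Hspa1a*) and 55.8% (*Hspa1b*) of their 75-base windows over the full length, but none in the last 500 bases. *Hspa1b* held between 76.1 and 81.4% of the summed counts in all mice, and the summed counts fitted as 1 gene had a log2 fold change of 0.57 (standard error 0.36, 95% interval from -0.24 to 1.38).

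*Hspb1* (chr5:135887919-135889563, plus strand) had 20.9, 38.2 and 16.7 CPM with vehicle and 17.4, 14.0 and 20.01 with AG636. All but vehicle replicate 2 lay in one range, and without this mouse the log2 fold change of -0.57 (standard error 0.30, 95% interval from -1.23 to 0.09) became -0.14. *Bag3* (chr7:128523616-128546981, plus strand) was near the limit of what these libraries can count. It had 25, 13 and 12 counts with vehicle and 10, 18 and 7 with AG636, or 4.46, 1.70 and 2.51 CPM against 2.12, 3.71 and 1.32. Its log2 fold change of -0.26 had a standard error of 0.50 and a 95% interval from -1.38 to 0.86, which holds both a decrease of 2-fold and no change, so that a difference of that size was not detectable at this depth.

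**Figure D3:**
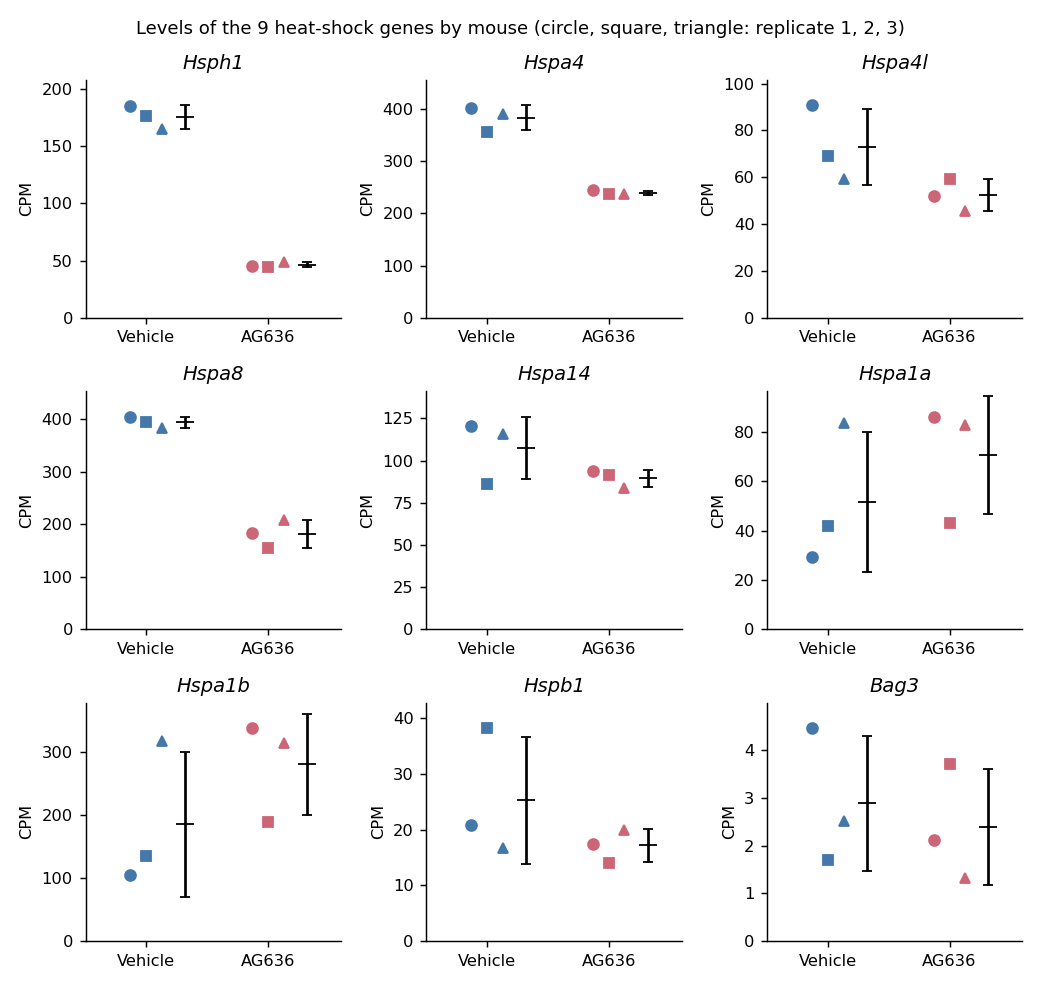
CPM (vertical axes, each from 0) of the 9 genes in the 3 vehicle mice (blue) and 3 AG636 mice (red), with the mean and SD in black. Only *Hsph1*, *Hspa4* and *Hspa8* show groups that do not overlap, and *Hspa1a*, *Hspa1b*, *Hspb1* and *Bag3* spread widely within groups.

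Taken over all 9 genes, which each passed the filter on low counts, 3 were called down and 0 up (edgeR's quasi-likelihood test, Benjamini-Hochberg adjusted p under 0.05 over all genes tested). Over all genes tested, 11.0% were called down, 10.3% up and 21.3% in either direction. At an unadjusted p under 0.05, 4 members were lower, the fourth being *Hspa4l*, and 0 were higher. Over all genes tested, 4112 of 11092 had an unadjusted p under 0.05, in either direction. With adjustment, DESeq2 and limma-voom each called the same 3 genes. The CPM of the groups did not overlap for 3 of the 9 members, each lower with AG636. Over all genes tested this share was 41.1%, and 20.6% were lower with AG636 without overlap. The median log2 fold change was -0.48 over the 9 members and 0.03 over all genes tested. Since this comparison chose the members, nothing is read from these counts. With all 6 mice and the filter on low counts, none of the 4 inducible genes had an unadjusted p under 0.05 with edgeR, DESeq2 or limma-voom. *Hspa1b* was called up without vehicle replicate 3 and, at the smaller standard error given above, without this filter.

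The ratio of inducible to constitutive counts differed between the mice of the 2 groups. For 1 *Hspa8* count there were 0.331, 0.447 and 1.05 counts of *Hspa1a* and *Hspa1b* together with vehicle and 2.32, 1.502 and 1.91 with AG636. The lowest AG636 mouse was above the highest vehicle mouse, although the inducible genes themselves overlapped between the groups. For 1 *Hsph1* count there were between 0.723 and 2.44 such counts with vehicle and between 5.21 and 9.32 with AG636. For 1 *Hsph1* count there were between 2.18 and 2.33 *Hspa8* counts with vehicle and between 3.47 and 4.27 with AG636. These ratios do not depend on the scaling of the libraries, and they rest on the same counts that chose the genes.

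The spread of *Hspa1a* and *Hspa1b* between mice was set beside that of immediate early genes, which respond within minutes to handling and to signaling. Their summed level over 23 genes was 614, 846 and 1249 CPM with vehicle and 1376, 1402 and 1463 with AG636. Vehicle replicate 3 was the highest vehicle mouse in both. AG636 replicate 2, which was low in *Hspa1a* and *Hspa1b*, was not low in the summed immediate early genes. Single genes differed, and this mouse was the lowest AG636 mouse in *Rhob* (95.5 CPM) and the highest in *Klf6* (107 CPM). Of the 18 immediate early genes tested, 17 were higher with AG636 and 4 passed the threshold, *Btg2*, *Klf6*, *Rhob* and *Jun*, with log2 fold changes from 0.89 to 1.144. These 4 are 22.2% of those tested, where 10.3% of all genes tested were called up and 5801 of 11092 were higher. Of the immediate early genes, DESeq2 called 7 and limma-voom 6. Their part in the levels of *Hspa1a* and *Hspa1b* was not tested.

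**Figure D4:**
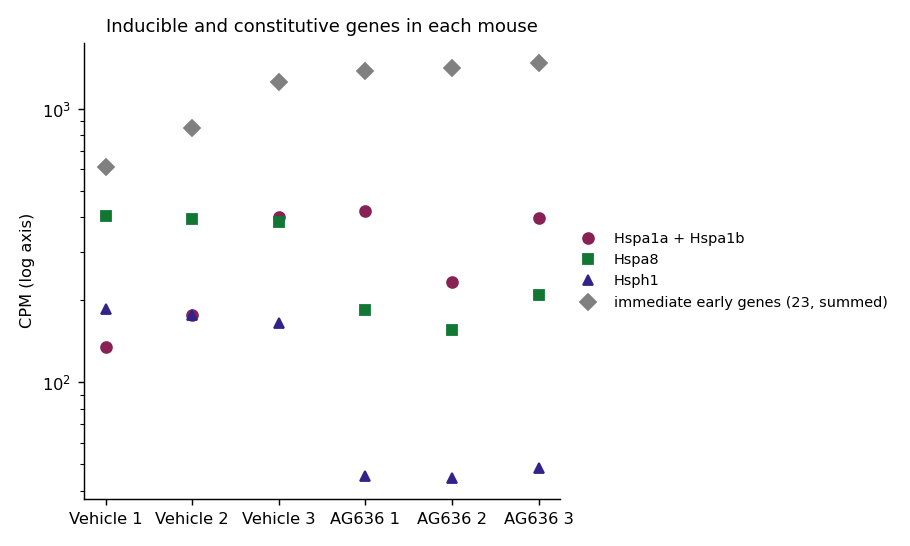
CPM on a log axis of *Hspa1a* and *Hspa1b* together, *Hspa8*, *Hsph1* and the summed immediate early genes in each of the 6 mice. *Hsph1* and *Hspa8* are lower in all 3 AG636 mice, while *Hspa1a* and *Hspa1b* together are at 134, 176 and 401 CPM with vehicle and 424, 232 and 397 with AG636.

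Patterns over the 6 mice were compared by Pearson's r of log2 CPM among 8475 other genes with a mean of at least 10 CPM. Closest to *Hsph1* were *Ppp1r14b*, *2410015M20Rik*, *Ipo4*, *Serbp1* and *Slc1a5*, with r from 0.996 to 0.998. All were picked for likeness to *Hsph1*, and so share its gap between the groups and small spread within them. Their log2 fold changes ran from -1.16 for *Ipo4*, which encodes an importin, to -0.46 for *2410015M20Rik*. Closest to the summed level of *Hspa1a* and *Hspa1b* were *Zfp422*, *Rilpl2*, *Fam126b*, *1600014C10Rik* and *Ankrd46*, with r from 0.989 to 0.999. Picked for this likeness, these genes repeat the pattern of *Hspa1a* and *Hspa1b* over the mice. Their log2 fold changes lay between 0.19 and 0.34 without passing the threshold. *Zfp422* had 41.2, 48.9 and 75.02 CPM with vehicle and 77.7, 55.3 and 75.9 with AG636. With 6 points and this many genes such values of r are a description, and the points share their library and its depth.

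The other genes of the HSP70 and heat shock system were taken from lists of 54 genes, of which 39 passed the filter on low counts. Of these 18 fell and 0 rose, or 46.2% against the 11.0% called down among all genes, with a median log2 fold change of -0.42. At an unadjusted p under 0.05 there were 25 lower and 2 higher, where 4112 of all 11092 genes tested were under 0.05 in either direction. With adjustment, *Ubb* was called up by limma-voom. The lists were written with results of these data known and are no independent evidence.

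Among other members of the HSP70 superfamily, 3 of 5 tested fell, or 60.0% against 11.0% over all genes tested. *Hyou1* and *Hspa5* (BiP), which fold proteins in the endoplasmic reticulum, had log2 fold changes of -0.99 and -0.87 (adjusted p = 0.00298 and 0.00911, edgeR), and *Hspa9* (mortalin), in mitochondria, had -0.84 (adjusted p = 0.00691, edgeR). *Hspa13* had a log2 fold change of -0.04 (interval from -0.58 to 0.51). *Hspa2* overlapped, at 8.40 ± 2.88 CPM in vehicle mice against 13.2 ± 4.25 in AG636 mice (SD, n = 3), a log2 fold change of 0.66 with an interval from -0.07 to 1.39. *Hspa1l*, *Hspa12a* and *Hspa12b* had 1, 1 and 26 counts in all.

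All 9 other exchange factor genes were tested and had negative log2 fold changes, and 2 of them fell, or 22.2%. Over all genes tested, 5291 of 11092 had negative values and 11.0% were called down. *Bag2*, a partner of HSP70 that opposes client ubiquitination, had 75.1, 38.5 and 49.1 CPM with vehicle and 23.6, 24.1 and 17.6 with AG636, a log2 fold change of -1.32 (adjusted p = 0.00855, edgeR). *Grpel1*, the exchange factor of mitochondrial HSP70, had a log2 fold change of -0.63 (adjusted p = 0.0129, edgeR). *Bag6* and *Bag4* had values of -0.13 and -0.06 with intervals that included no change.

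Of the 12 HSP70 partner genes tested, 6 fell and 0 rose. *Cacybp* (calcyclin-binding protein), *Stip1* (HOP, which links HSP70 to HSP90), *St13* (HIP) and *Dnaja2*, a J-domain protein, had log2 fold changes of -0.99, -0.77, -0.65 and -0.53. The inducible J-domain gene *Dnajb1* had 88.4, 108 and 140 CPM with vehicle and 135, 98.4 and 134 with AG636. As in *Hspa1a* and *Hspa1b*, vehicle replicate 3 was the highest vehicle mouse and AG636 replicate 2 the lowest AG636 mouse, and the log2 fold change was 0.13 with an interval from -0.29 to 0.55.

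The heat shock factors themselves overlapped between the groups. *Hsf1* had 37.8, 27.6 and 30.1 CPM with vehicle and 33.1, 20.002 and 25.5 with AG636, a log2 fold change of -0.28 (interval from -0.76 to 0.20). *Hsf2* had a log2 fold change of -0.09 (interval from -0.60 to 0.42). Of other known HSF1 targets, 13 of 15 were tested, 10 fell and 0 rose, and some of them are also counted among the partner genes. The share called down was 76.9%, against 11.0% over all genes tested. *Hspd1* and *Hspe1*, which encode the mitochondrial chaperonin and its lid, had log2 fold changes of -1.29 and -1.10 (adjusted p = 0.00245 and 0.00203, edgeR). *Fkbp4*, an HSP90 cochaperone, and *Hsp90ab1*, the constitutive cytosolic HSP90, had -1.19 and -0.95 (both adjusted p = 0.00202, edgeR). *Hsp90aa1*, the other HSP90 gene of this list, was also called down, with -0.65 (adjusted p = 0.00499, edgeR). So was the J-domain gene *Dnaja1*, with -0.51 (adjusted p = 0.0484, edgeR). *Ubb*, which encodes ubiquitin, had 0.33 with an interval from 0.08 to 0.57.

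Of the 9 small heat-shock genes listed besides *Hspb1*, 5 had 0 counts in all 6 samples, where 3 counts would correspond to between 0.392 and 0.637 CPM (counting error only). The 2 that passed the filter were *Hspb6*, with means of 13.7 CPM for vehicle and 18.03 for AG636, and *Hspb11*, with 6.91 and 7.10. They had log2 fold changes of 0.39 and 0.06, with intervals that included no change.

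**Figure D5:**
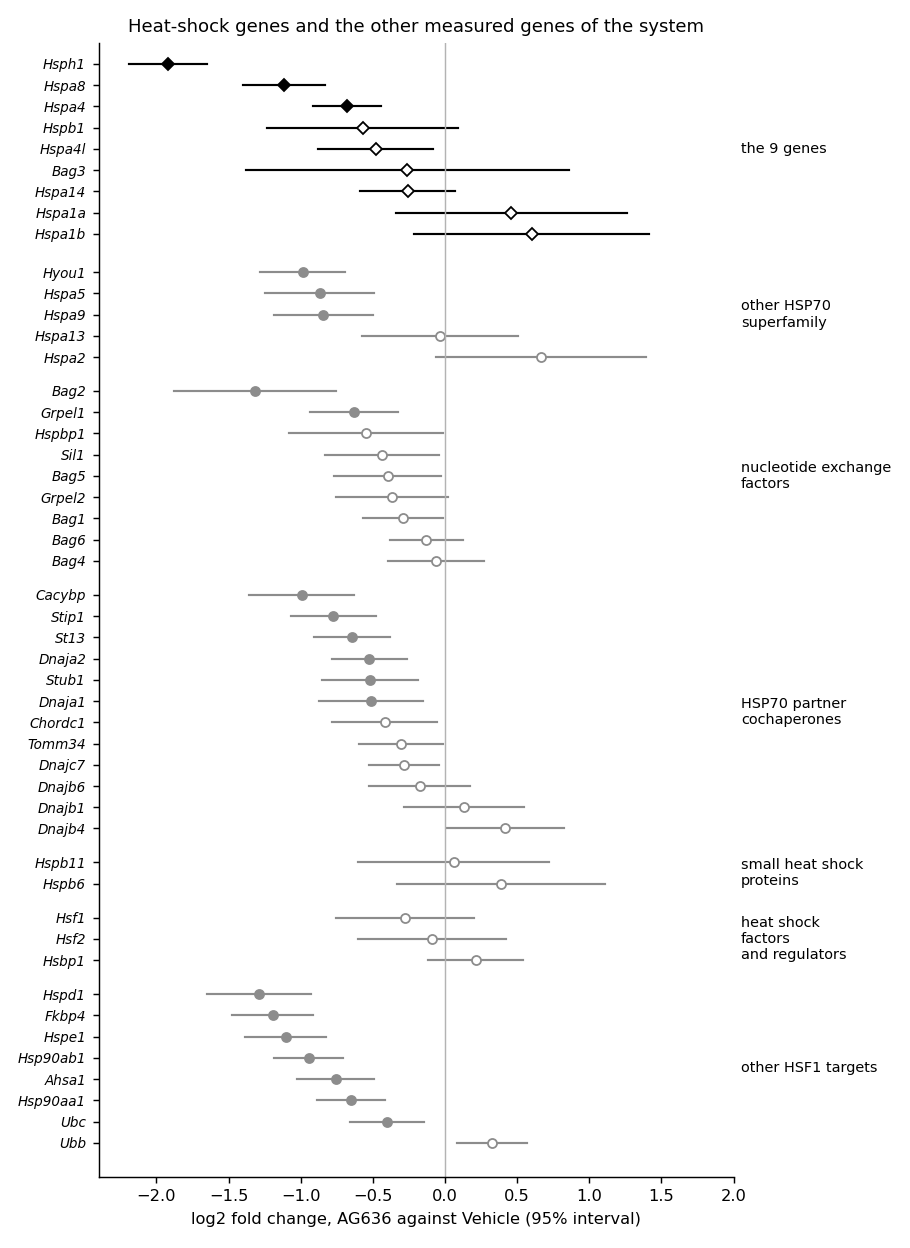
Log2 fold changes of AG636 against vehicle (horizontal axis) with 95% intervals for the 9 genes (black diamonds) and the 39 other genes tested of the heat shock system (grey circles, each gene drawn once under the first list that holds it). Filled symbols mark an adjusted p under 0.05. *Hsph1* lies farthest to the left at -1.92, and no filled symbol lies to the right of 0.

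Read against the promoters shown above, the full heat shock element was in *Hsph1*, which had the lowest log2 fold change of the 9 members, while the 4 genes with pairs only had values from -0.57 to 0.60. The genes with neither had -0.68 (*Hspa4*), -0.48 (*Hspa4l*) and -0.26 (*Hspa14*). The interval of *Hspa4* overlapped that of *Hspb1*, which has pairs only, and the difference between these genes was not tested. *Hspd1* and *Hspe1*, both called down, and *Chordc1* and *Dnajb6*, both not called, also had at least 1 full element. *Hspd1* and *Hspe1* had equal numbers of matches, 2 full elements and 3 pairs each. Whether their windows overlap was not checked, so they may not be separate promoters. Of the 11 other HSF1 targets with a window, 3 had a full element and 6 had a pair. These are counts of letters, and they were not tested against the fold changes. The group was selected for the decrease of *Hsph1* with none of the genes listed as inducible called down, so nothing is read from this comparison.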

How the data were processed

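The authors deposited raw counts per gene and sample, together with gene lengths, which were not used. Per the study's methods, end-of-transcript libraries (QuantSeq) were read as single 75-base ends. Read starts were trimmed with cutadapt, ends were trimmed of poly-A, HISAT2 aligned the reads against mm10, and Subread counted them. The submitters' processing notes name featureCounts, HISAT2 2.0.4 and cutadapt 1.9.1, and the study's methods name other releases of cutadapt and Subread. The annotation release, the use of strand and the handling of multiply mapped reads are not given in the sources used here. GENCODE M21 symbols were matched to 54723 of 54838 identifiers, and 0 columns of samples were unused.

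Genes were kept with edgeR's filterByExpr (minimum count 10, minimum total 15), scaled with TMM and compared with the quasi-likelihood test in edgeR 4.0.16 under R 4.3.3, with Benjamini-Hochberg adjustment over 11092 genes. Standard errors are the log2 fold change divided by the square root of F. DESeq2 1.42.0 and limma-voom (limma 3.58.1) were alternatives. The scripts were tested on simulated data. P-values rest on 3 single mice per group, with the variance of each gene moderated over all genes tested. No replicate pair agreed within sampling noise (chi-square per degree of freedom from 6.67 to 15.6). Same-numbered mice of the 2 groups had deviations that correlated at -0.06, -0.18 and 0.22, and mice of different numbers at -0.38 to 0.36. With 3 mice per group this cannot settle whether the numbers mark a shared batch, and they were not taken as pairs. Promoter sequences are RefSeq's (GRCm38.p6), and transcript ends are GENCODE's. Proteins were not compared.

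The members and lists were chosen with earlier results of these data known. Besides the members, the text names *Hsf1*, *Hsf2*, up to 4 called genes of each list by size of change, and the 5 genes closest in pattern to *Hsph1* and to *Hspa1a* and *Hspa1b*. *Hsp90ab1*, *Hsp90aa1*, *Dnaja1*, *Dnajb1*, *Ubb*, *Hspa2*, *Hspa13*, *Bag4* and *Bag6* fall outside this rule and were chosen after their values were seen. The same holds for *Hspb6*, *Hspb11*, *Chordc1*, *Dnajb6*, *Gm45902*, the genes of low counts and the cell markers.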

Additional observations from a re-analysis of the deposited data

How the results depend on the processing

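*Hsph1*, *Hspa4* and *Hspa8* were called down under all 14 alternative fits, with log2 fold changes from -1.99 to -1.83, from -0.74 to -0.59 and from -1.22 to -1.01. With no filter on low counts and without vehicle replicate 3, *Hspa4l* was also called down and *Hspa1b* up, so that the members called up numbered 1 in each of these fits. With no filter, the call of *Hspa1b* came with a standard error of 0.14 in place of 0.37 at a similar estimate. Leaving out 1 mouse gave 3 to 4 members called down and 0 to 1 called up. Over all genes, 452 to 1298 were called down and 399 to 1074 up when 1 mouse was left out. The counts called down, 1222 with all mice, were 701, 692, 630 and 452 without vehicle replicates 1 and 2 and AG636 replicates 1 and 3, and those called up, 1146 with all mice, were 524, 500, 605 and 399. There were 325 down and 231 up at an adjusted p under 0.01. Of all calls, 51.6% were down, and 38.1% with library size alone, which set the median of all genes at 0.12 on the log2 scale. In the other genes of the heat shock system, limma-voom and library size alone called 1 gene up in place of 0, and leaving out 1 mouse gave 13 to 17 called down in place of 18. The replicate block called 1046 genes down and 914 up and the same 3 members. The labels do not say what same-numbered mice share, so the block was not taken as a pairing. Groups did not overlap for 4 members, *Hspa4l* added, with median-of-ratios factors and with TMM computed without ribosomal protein and heat-shock list genes. With 2 units in place of 3, 5 members had a heat shock element. The log2 fold change of *Bag3* was between -0.73 and 0.18 over its 13 fits and had no value with at least 10 counts in every sample. *Bag3*, with 7 to 25 counts per sample, is also limited by depth.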
